A study of Mus musculus with 4 samples.

Results

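The genes described here were the Hox genes of the mouse A, B, C and D clusters, taken as every row of the deposited count matrix whose symbol was Hox, a cluster letter and a paralog number. They numbered 36 of 16892 genes, with 11 in HoxA, 9 in HoxB, 7 in HoxC and 9 in HoxD. Paralogs 1 to 8 made up 23 of them, paralogs 9 and 10 made up 7, and paralogs 11 to 13 made up 6. Single cells came from the caput, corpus and cauda of the epididymis, the coiled duct in which sperm mature, and from the vas deferens that follows it. All groups were adult male FVB/NJ mice, 10-12 weeks old, with no treatment named in the labels. For each region, 8 pieces from 4 mice were pooled into 1 droplet library of 3′ tags. The cuts between regions were made under a dissection microscope and only approximated the anatomical borders. In all there were 8880 cells and 26639701 unique molecular identifiers (UMIs), from 4408989 in the caput library to 10744928 in the vas deferens library.

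With 1 pooled library per region there was no biological replicate, so no test was possible and no p-value is given. Region, dissection and library cannot be told apart. Levels are UMIs of a gene in a cell group, scaled to a group total of 1000000 UMIs (UPM), and the intervals given are 95% intervals for counting error alone. A UMI marks 1 captured molecule at the 3′ end, so levels were not divided by gene length. A gene was called higher or lower where the ratio was at least 2, with at least 20 UMIs on the higher side and the lower side raised to a floor of 3 UMIs. Where one side held 0 UMIs the ratio against that floor is given as a lower bound.

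Hox genes encode homeodomain transcription factors that give cells their position along the body axis. Within a cluster, genes with low paralog numbers lie toward the 3′ end and are used toward the head, and genes with high numbers toward the tail, an order called collinearity. The epididymis and vas deferens form from one embryonic tube, the Wolffian duct. In mice, loss of Hoxa10 or Hoxa11 gives distal parts of this duct features of more proximal parts. The duct wall holds an inner epithelium of principal, clear and basal cells, surrounded by stroma and smooth muscle.

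Upstream sequences of 4 genes are shown because their levels peaked in different places in these data: Hoxa5 in caput stroma, Hoxa10 in cauda stroma and vas deferens muscle, Hoxa11 in vas deferens stroma, and Hoxb8 in epithelium. Each is the 250 bases before an annotated start, from RefSeq on GRCm38.p6, written 5′ to 3′ on the strand of the gene. For Hoxa10 the window precedes the downstream of its annotated starts. Capitals mark matches to 5 motifs searched on both strands.
Hoxa5, chr6:52204588-52204837, minus strand: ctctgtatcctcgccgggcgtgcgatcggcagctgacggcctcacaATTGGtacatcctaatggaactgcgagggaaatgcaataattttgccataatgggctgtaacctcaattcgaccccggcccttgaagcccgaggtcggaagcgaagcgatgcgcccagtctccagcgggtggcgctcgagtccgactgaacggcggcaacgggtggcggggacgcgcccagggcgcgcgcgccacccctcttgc
Hoxa10, chr6:52234940-52235189, minus strand: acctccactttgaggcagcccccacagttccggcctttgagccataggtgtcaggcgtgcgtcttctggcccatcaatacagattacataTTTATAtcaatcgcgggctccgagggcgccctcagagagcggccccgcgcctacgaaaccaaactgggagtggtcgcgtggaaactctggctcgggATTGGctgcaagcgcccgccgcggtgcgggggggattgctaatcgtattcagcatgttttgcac
Hoxa11, chr6:52245811-52246060, minus strand: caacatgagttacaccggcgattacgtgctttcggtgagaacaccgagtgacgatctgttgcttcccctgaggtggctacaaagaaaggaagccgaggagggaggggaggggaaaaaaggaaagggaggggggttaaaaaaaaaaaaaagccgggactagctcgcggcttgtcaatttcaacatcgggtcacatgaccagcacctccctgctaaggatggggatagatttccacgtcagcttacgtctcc
Hoxb8, chr11:96281655-96281904, plus strand: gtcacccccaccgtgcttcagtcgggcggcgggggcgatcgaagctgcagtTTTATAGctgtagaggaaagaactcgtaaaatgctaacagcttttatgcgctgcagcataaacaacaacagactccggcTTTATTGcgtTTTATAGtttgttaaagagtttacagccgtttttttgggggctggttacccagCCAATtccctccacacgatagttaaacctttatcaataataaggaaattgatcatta

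The motifs were TTTATNG (containing the core bound by posterior Hox and caudal-type proteins), TGATTNAT (a joint site of Hox proteins and their TALE cofactors), AGGTCA (a half-site of retinoid receptors), CCAAT (the CCAAT box) and TATAAA (the TATA box). TTTATNG and TATAAA matches can overlap. The Hoxb8 window held 3 matches to TTTATNG, 2 to TATAAA and 1 to CCAAT, whereas the Hoxa11 window held none of the 5 motifs. The RefSeq table gave 24 windows for 22 of the 36 genes. TTTATNG occurred in 2 of these 24 windows and in 9.81% of all 32851 windows of the same length, TGATTNAT in 2 and 2.82%, AGGTCA in 6 and 14.02%, CCAAT in 14 and 33.8%, and TATAAA in 4 and 12.4%. The median CpG count was 12.5 per Hox window (range 2 to 35) and 6 over all windows. A match describes the letters in the window and no more.

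The authors' cell annotation gave 3956 principal, 1412 basal, 348 clear, 2222 stromal, 502 muscle, 245 endothelial and 195 immune cells. Of the 36 genes, 27 reached 20 UMIs in stromal cells, 15 in principal, 12 in basal, 12 in clear, 9 in muscle, 7 in endothelial and 0 in immune cells. Hoxb1 was the 1 gene without a UMI in stroma. The annotated types carried their own markers: collagen and Pdgfra markers summed to 3701 to 15008 UPM in stroma and 57.1 to 87.3 UPM in principal cells. Smooth muscle markers such as Myh11 and Acta2 summed to 27976 to 51254 UPM in muscle but also to 15240, 8323, 9844 and 2932 UPM in caput, corpus, cauda and vas deferens stroma. The caput library had no cell annotated as muscle. In 43 cases a cell barcode occurred in 2 libraries (86 cells). Leaving those cells out changed none of the counts of called genes by more than 1.5 times.

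Epithelium on one side and stroma and muscle on the other held different Hox clusters. HoxB genes gave 57.4% to 77.7% of the Hox UMIs of principal cells over the 4 libraries and HoxD genes 21.3% to 39.2%, whereas HoxA and HoxC genes gave at most 2.89% and 0.962%. Basal cells (66.8% to 69.6% HoxB) and clear cells (64.2% to 71.6% HoxB) had a similar make-up. In stroma the leading cluster changed along the duct. It was HoxC in the caput (71.4%) and corpus (48.6%) and HoxD in the cauda (44.8%). The caput lead of HoxC rested on 1 gene, as Hoxc8 gave 971 of its 1202 UPM and HoxA genes summed to 331 UPM. Vas deferens stroma drew 41.3% from HoxA and 40.3% from HoxD. Vas deferens muscle drew 56.6% from HoxA and 34.1% from HoxD. Endothelial cells, with 19 to 206 Hox UMIs per library, held 46.2% to 68.4% HoxB in the 3 libraries with 20 or more cells.

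**Figure D1:**
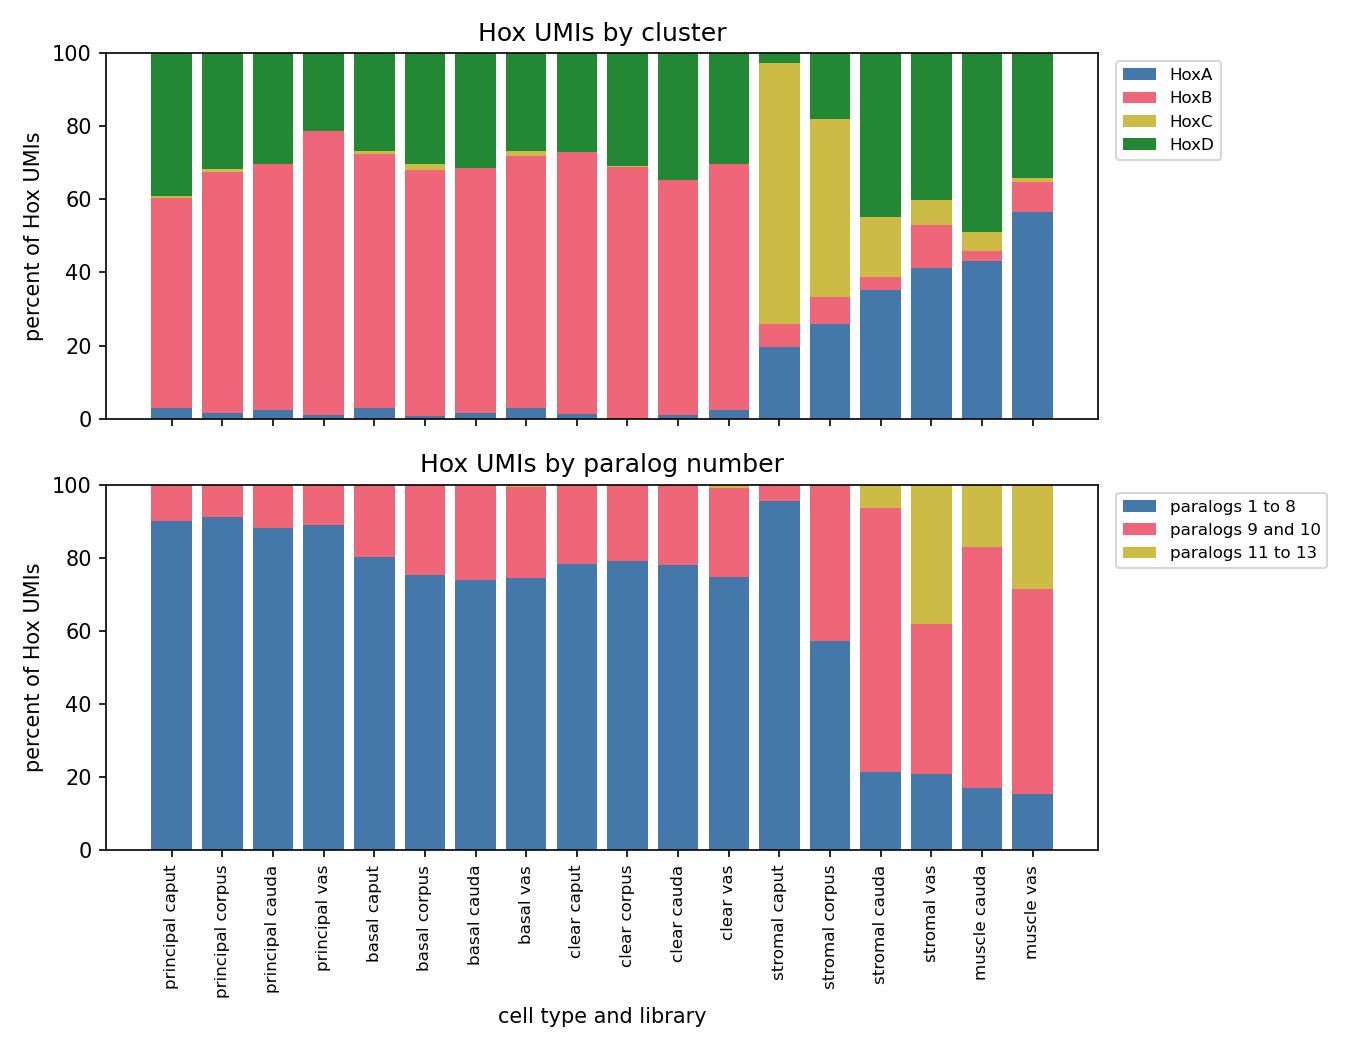
Share of Hox UMIs (percent) by cluster (upper panel) and by paralog class (lower panel) for each cell type and library. Bars of the principal, basal and clear cells are mostly HoxB and paralogs 1 to 8 in every library. Stromal bars change from 71.4% HoxC (mostly Hoxc8) in the caput to mainly HoxA and HoxD in the vas deferens.

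By paralog number, paralogs 1 to 8 gave 95.5%, 57.2%, 21.4% and 20.9% of stromal Hox UMIs from caput to vas deferens, and so led in the caput and corpus. Paralogs 9 and 10 gave 4.47%, 42.6%, 72.1% and 40.9% and led in the cauda. Paralogs 11 to 13 gave 0% of 1408 Hox UMIs in the caput, then 0.177%, 6.55% and 38.2%, so that in the vas deferens they came close to paralogs 9 and 10, with overlapping intervals. In principal cells paralogs 1 to 8 stayed between 88.1% and 91.1%, and paralogs 11 to 13 were at most 0.321%. The summed Hox level in stroma was 1684, 574, 794 and 454 UPM from caput to vas deferens, and in principal cells 1164, 660, 538 and 1173 UPM. The caput excess in stroma came mostly from HoxC genes, which summed to 1202 UPM there, with Hoxc8 alone at 971 UPM.

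**Figure D2:**
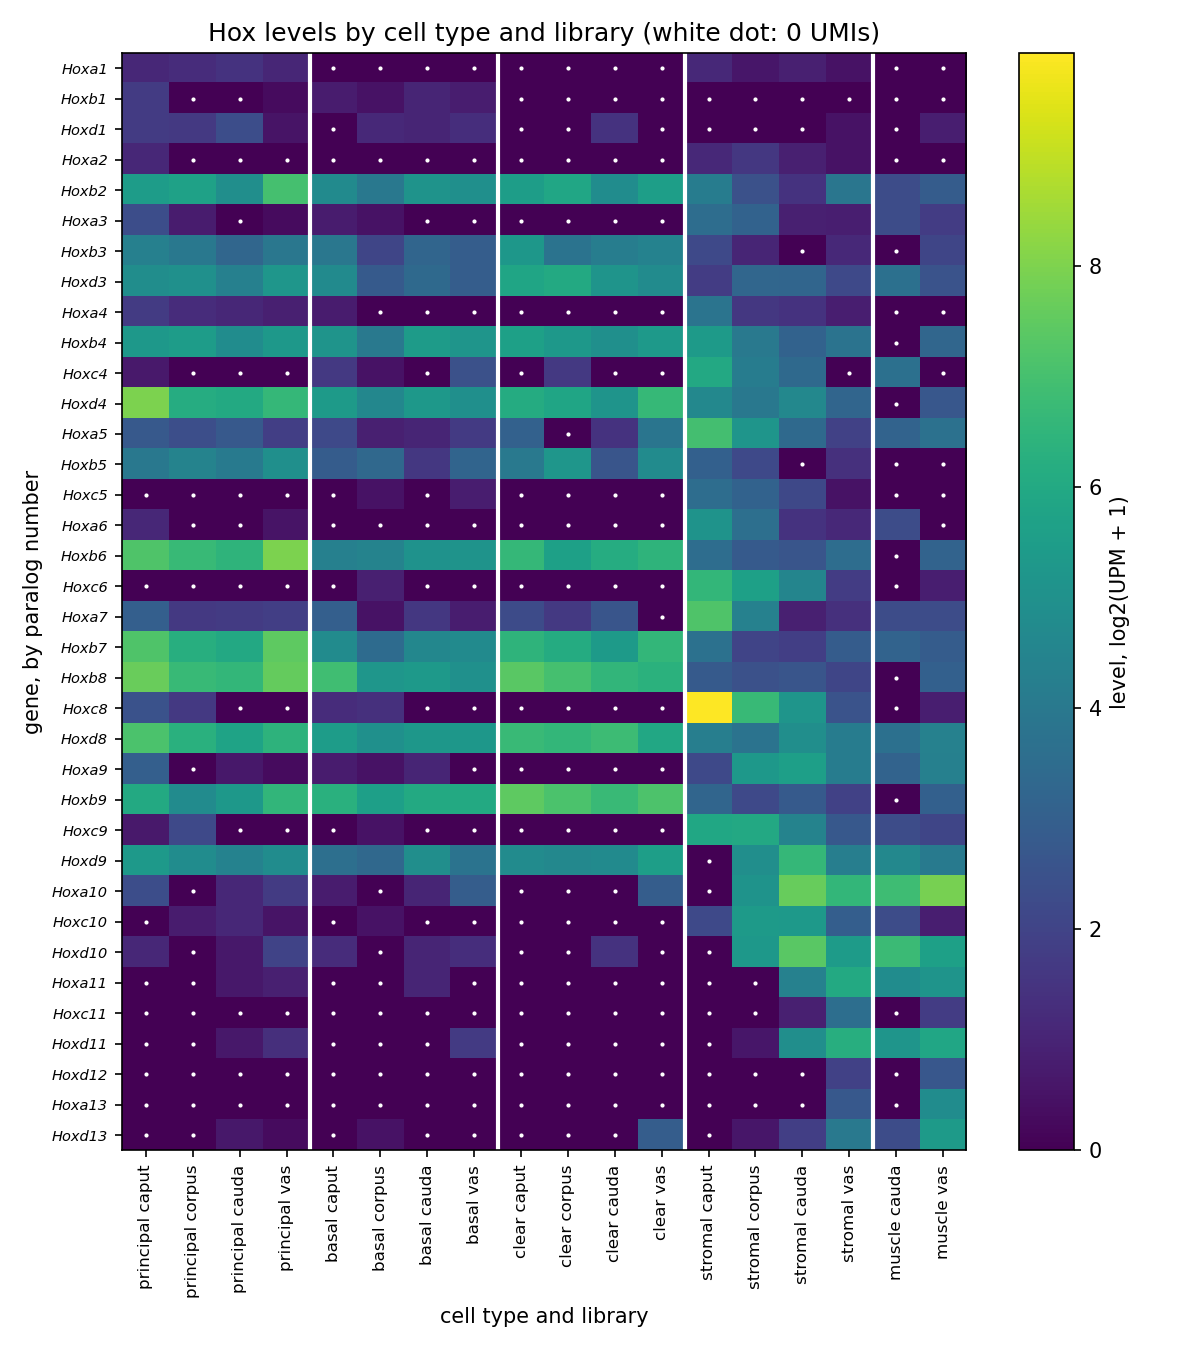
Level of each of the 36 Hox genes, log2(UPM + 1), with genes ordered by paralog number (rows) and cell type and library in columns. White dots mark 0 UMIs. HoxB and HoxD genes up to paralog 9 fill the epithelial columns, and the bright stromal and muscle cells lie lower in the list the more distal the library.

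The question asked of each cell type was whether Hox levels differed along the duct and in what order. In stroma, 17 of 21 Hox genes with 20 UMIs in their highest library had a highest level at least 4-fold above the lowest, against 14.2% of all genes tested. In principal cells it was 1 of 12 (25.7% of all genes) and in basal cells 2 of 12 (12.2%). In clear cells, over 3 libraries without the vas deferens, it was 0 of 8 (5.15%). In muscle, with 2 libraries, it was 0 of 9 (1.22%). Each gene was also given a mean position along the duct, the average of library ranks (1 caput, 2 corpus, 3 cauda, 4 vas deferens) weighted by level. Across genes, Spearman's rho between paralog number and mean position was 0.65 over the 27 stromal genes, −0.25 over 15 principal genes and 0.15 over 12 basal genes. Within stroma it was 0.96 for HoxD (7 genes), 0.75 for HoxC (7), 0.68 for HoxA (7) and −0.14 for HoxB (6). These are descriptions across genes that share the same 4 libraries, and neighbouring genes of a cluster are not independent.

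**Figure D3:**
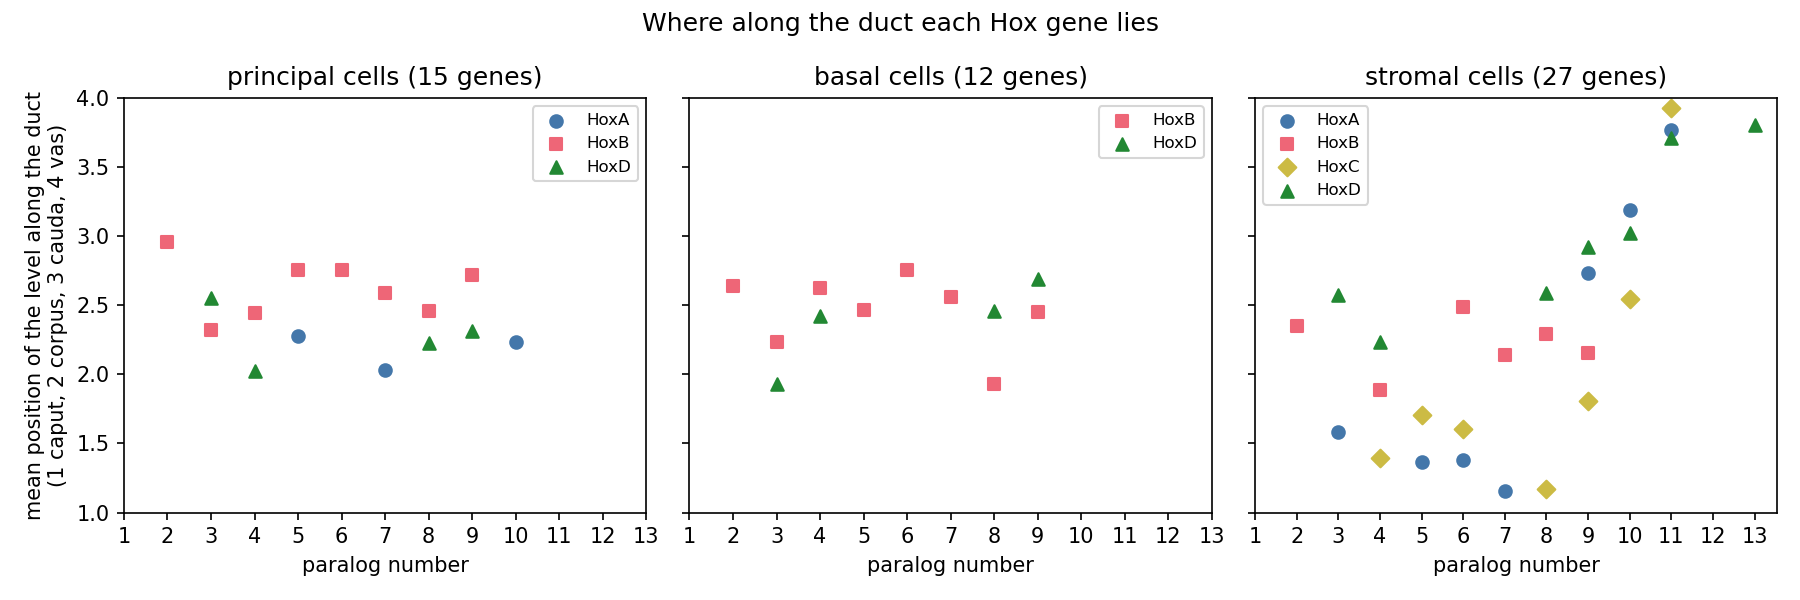
Mean position of each Hox gene along the duct (y axis, 1 caput to 4 vas deferens) against its paralog number (x axis), for genes with 20 or more UMIs in principal, basal or stromal cells. Principal and basal points stay between 1.93 and 2.96 at every paralog number, whereas stromal HoxA, HoxC and HoxD points lie between 1.15 (Hoxa7) and 2.59 (Hoxd8) for paralogs 3 to 8, with no climb among HoxA and HoxC there, and between 3.71 (Hoxd11) and 3.93 (Hoxc11) for paralogs 11 and 13.

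Hoxc8, a patterning gene of the thoracic skeleton, had the highest level of any Hox gene in any cell type and library. Its stromal level was 971 UPM (812 UMIs, interval 905 to 1040) in the caput, then 103, 34.9 and 4.78 UPM from corpus to vas deferens. The intervals of the 4 libraries do not overlap, and each step along the duct was lower. The caput level was 27.8-fold the cauda level (interval 20.3 to 39.0). In the same caput library principal cells held 8 Hoxc8 UMIs, or 4.64 UPM, so that stroma was 209-fold higher (interval 106 to 486). Hoxc8 had 1 UMI in vas deferens muscle and 0 in cauda muscle. The smooth muscle markers were also highest in caput stroma among the stromal libraries, and their part in the result was not tested. Hoxc8 lies at chr15:102990607-102994111 on the plus strand of GRCm38.

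The other stromal genes of paralogs 3 to 7 in HoxA and HoxC with 20 or more UMIs were also highest in the caput. Hoxa7 stood at 145, 19.3, 0.852 and 1.59 UPM from caput to vas deferens, with 121, 38, 1 and 4 UMIs. Hoxa5, a regulator of lung and rib development, stood at 123, 35.6, 9.37 and 2.79 UPM, and the caput was 13.1-fold above the cauda (interval 7.05 to 27.1). Hoxc6 stood at 93.3, 49.3, 22.2 and 2.39 UPM, and Hoxc4 at 63.4, 16.8, 9.37 and 0 UPM. By level, the order caput, corpus, cauda, vas deferens held for Hoxa5, Hoxc4, Hoxc6 and Hoxc8. It also held by level for the lower Hoxa6 (33.5 to 1.20 UPM) and Hoxc5 (10.8 to 0.399 UPM). Hoxa6 and Hoxc5 ended at or below the vas deferens floor of 1.20 UPM, so their last step rests on few UMIs. Hoxa3 lay at 10.8 and 7.62 UPM in caput and corpus and below 1 UPM in the 2 distal libraries.

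Paralogs 9 and 10 of HoxA, HoxC and HoxD were highest in the corpus or cauda. Hoxc9 was level between caput and corpus at 59.8 and 62.0 UPM, a ratio of 1.04 (interval 0.74 to 1.47), then 20.5 and 5.58 UPM. Hoxc10 stood at 3.59, 41.1, 40.1 and 6.78 UPM, so that corpus and cauda did not differ beyond counting error. Hoxa9 stood at 3.59, 38.1, 47.7 and 16.7 UPM. The corpus thus already carried paralogs 9 and 10, and the HoxC members lay more proximally than the HoxA members of the same number: mean positions were 1.81 and 2.55 for Hoxc9 and Hoxc10 and 2.73 and 3.19 for Hoxa9 and Hoxa10.

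Hoxa10, which patterns the distal male and female genital ducts, had 0 UMIs in caput stroma and then 33.0, 195 and 92.9 UPM, from 65, 229 and 233 UMIs. Hoxd10 followed with 0, 38.1, 167 and 43.0 UPM, and Hoxd9 with 0, 29.0, 96.3 and 17.9 UPM. All 3 peaked in the cauda and had no UMI among 836265 UMIs of caput stroma. Against the caput floor of 3.59 UPM, the cauda level was at least 54.4-fold higher for Hoxa10, at least 46.6-fold higher for Hoxd10 and at least 26.8-fold higher for Hoxd9. The vas deferens level was below the cauda level by 2.10-fold for Hoxa10 (interval 1.74 to 2.53), 3.88-fold for Hoxd10 (3.05 to 4.95) and 5.37-fold for Hoxd9 (3.77 to 7.76). Hoxa10 lies at chr6:52231197-52240854 on the minus strand, with its next same-strand gene 108 bases away.

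Paralogs 11 to 13 were highest in the vas deferens. Hoxa11 had 0 UMIs in caput and corpus stroma, then 19.6 UPM in the cauda and 64.2 UPM in the vas deferens, a 3.27-fold step (interval 2.11 to 5.31). Hoxd11 had 0 UMIs in the caput, 1 in the corpus, then 29.0 and 74.5 UPM, a 2.57-fold step (1.78 to 3.82). Hoxd13, which patterns digits and the terminal urogenital tract, had 0, 1, 3 and 38 UMIs, and Hoxc11 had 0, 0, 1 and 28 UMIs. Hoxa13 with 14 UMIs and Hoxd12 with 7 UMIs were seen in the vas deferens library alone among stromal cells. Their vas deferens levels were 5.58 and 2.79 UPM, and the floor of 3 UMIs in the cauda was 2.56 UPM. Neither gene reached 20 UMIs, so a difference could not be called at this depth. Each of the 6 members of this class was highest in the vas deferens, which also gave the most stromal UMIs (2509168).

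**Figure D4:**
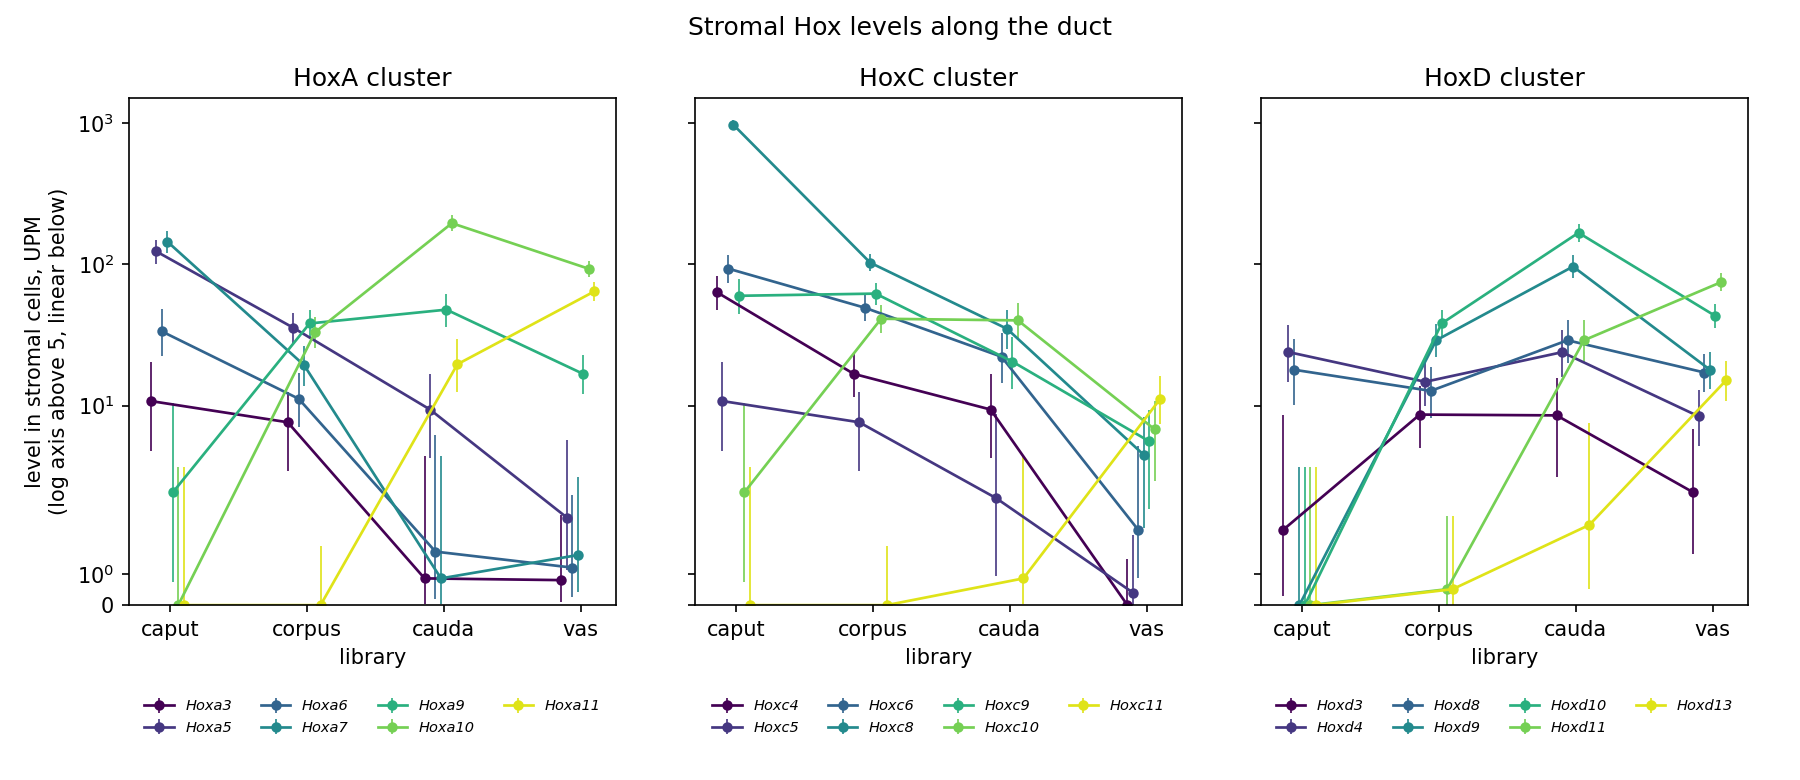
Stromal level (UPM, y axis, log above 5 and linear below) in the 4 libraries (x axis) for HoxA, HoxC and HoxD genes with 20 or more stromal UMIs. Points are levels and bars are 95% Poisson intervals. Dark lines (low paralog numbers) of HoxA and HoxC descend from the caput, paralogs 9 and 10 of HoxA and HoxD peak in the cauda, and paralogs 11 and 13 have their highest points in the vas deferens.

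Counted over genes, 7 of 17 stromal Hox genes tested were higher in cauda than caput and 8 were lower, against 10.7% and 11.1% of all genes. The median log2 ratio was −0.0033 over the 17 Hox genes and −0.0023 over all genes, since the 2 directions balanced. None of the 9 genes of paralogs 1 to 8 was higher and 7 were lower, whereas 5 of 6 genes of paralogs 9 and 10 and both tested genes of paralogs 11 to 13 were higher. Between caput and corpus, 5 of 15 were higher in the corpus and 6 lower (8.45% and 5.96% of all genes). Between corpus and cauda, 6 of 17 were higher in the cauda and 6 lower (5.61% and 7.89%). From cauda to vas deferens, 6 of 17 were higher in the vas deferens and 9 lower (11% and 6.24%). There, over all stromal cells, all 6 tested genes of paralogs 9 and 10 were lower and all 4 tested genes of paralogs 11 to 13 were higher. With the 3 epididymal libraries pooled, 5 of 26 genes were higher in the vas deferens and 14 lower (8.73% and 11.1%). The median log2 ratio was −1.02 over the Hox genes, with genes under the floor set at their bound, and −0.08 over all genes. Asking for 50 UMIs in place of 20 left 2 higher.

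HoxB genes did not take this order in stroma. Hoxb4 was highest in the caput at 41.9, 15.2, 7.67 and 12.8 UPM. Hoxb2 was highest at both ends, at 16.7, 4.57, 1.70 and 13.9 UPM from 14, 9, 2 and 35 UMIs. Hoxb6, Hoxb7, Hoxb8 and Hoxb9 stayed between 2.56 and 12.0 UPM. Among HoxD genes of low number, Hoxd4 (8.37 to 23.9 UPM), Hoxd8 (12.7 to 29.0 UPM) and Hoxd3 (2.39 to 8.63 UPM) were also spread over the duct, with the highest library the cauda for Hoxd8.

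Stroma in the deposited annotation held several populations, which lie in different regions. The population named Connective was the 1 with over 100 cells in each library (184, 420, 162 and 209 cells). Within it, Hoxc8 stood at 1013, 106, 47.1 and 9.86 UPM, and Hoxa7 at 152, 18.4, 1.27 and 4.93 UPM. Hoxa10 stood at 0, 33.8, 181 and 168 UPM, so that cauda and vas deferens did not differ by 2-fold (ratio 0.93, interval 0.71 to 1.20), unlike over all stromal cells. Hoxa11 was 0, 0, 16.6 and 105 UPM and Hoxd11 was 0, 0.593, 28.0 and 136 UPM. The vas deferens was 6.35-fold above the cauda for Hoxa11 (interval 3.46 to 12.6) and 4.87-fold above it for Hoxd11 (3.01 to 8.18). These ratios were larger than over all stromal cells, of which Connective cells are a part, but the intervals overlapped for both genes.

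In Connective cells, 6 of 16 Hox genes were higher in cauda than caput and 8 lower (10.1% and 11.7% of all genes). From caput to vas deferens, 4 of 12 were higher and 8 lower (14.3% and 12.3%). From cauda to vas deferens, 2 of 11 were higher and 6 lower (10.5% and 7.23%). Of paralogs 9 and 10, Hoxd9, Hoxc10 and Hoxd10 were lower in that last step. Unlike over all stromal cells, Hoxa9 (ratio 0.58, interval 0.32 to 1.03) and Hoxa10 were not called. Spearman's rho of paralog number with mean position was 0.55 over 23 genes, with 0.75 for HoxA (7 genes), 0.60 for HoxC (6) and 0.83 for HoxD (6). The population named StromalIL6 was small in UMIs but held Hoxc8 at 657, 45.6, 31.5 and 0 UPM, from 40, 7, 1 and 0 UMIs. Among populations of vas deferens stroma, StemStromalVas (517 cells) held Hoxd11 at 72.6, Hoxa10 at 74.4 and Hoxd13 at 23.0 UPM. The population named AngryVasStromal gave a further 213 cells and 655288 UMIs of vas deferens stroma. Its Hox levels are not reported here, so the populations named do not describe all of vas deferens stroma. Fibroblast cells held Hoxa10 at 231 UPM in the cauda and 237 UPM in the vas deferens.

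**Figure D5:**
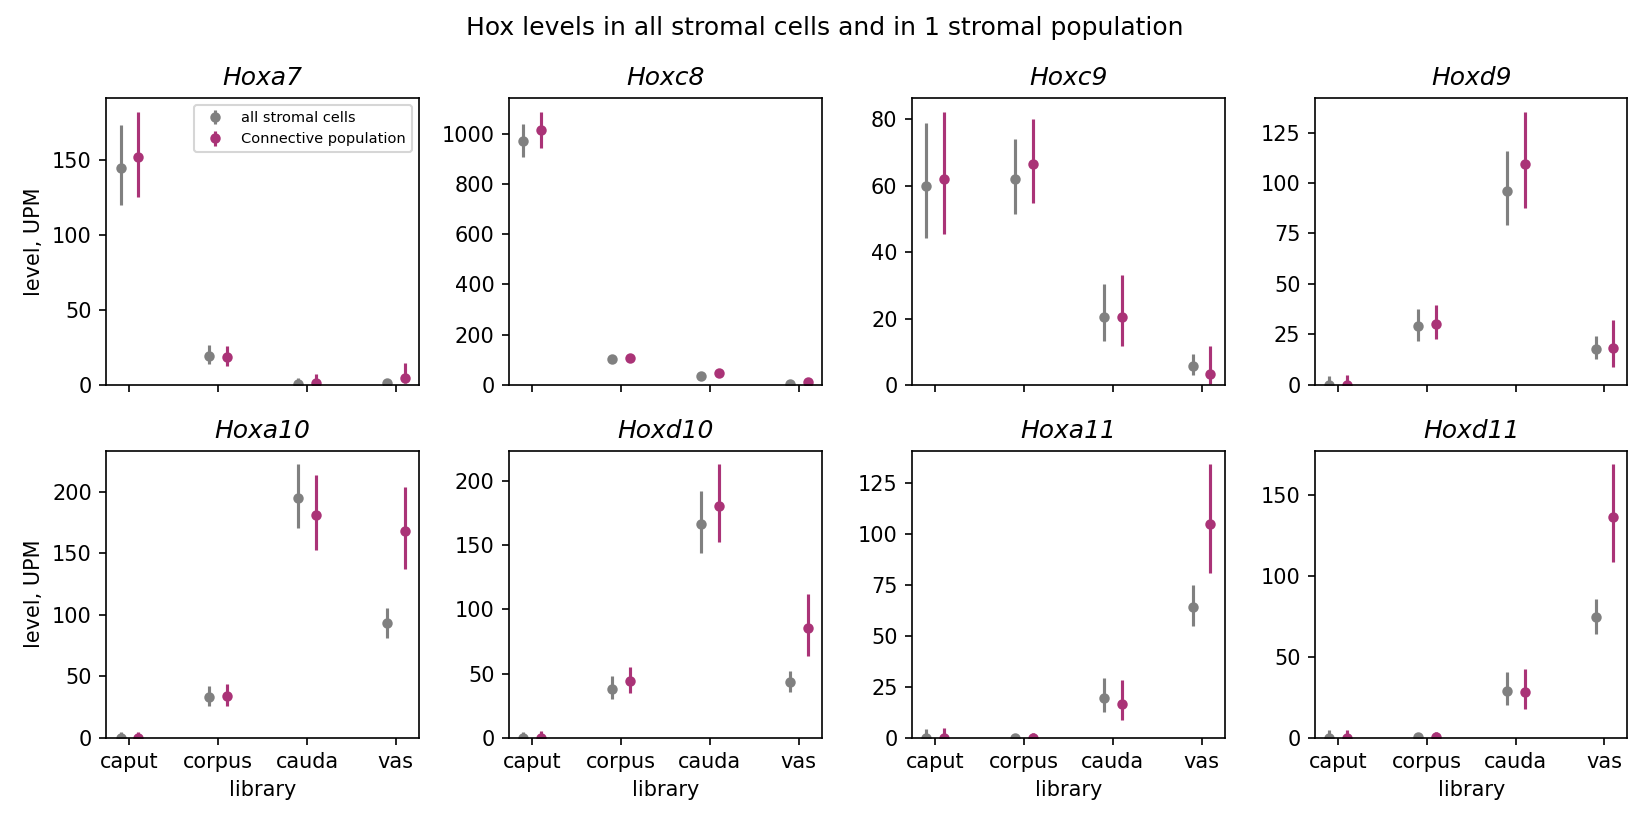
Level (UPM, y axis) of 8 Hox genes in the 4 libraries (x axis), in all stromal cells (grey) and in the Connective population (magenta), with 95% Poisson intervals. Both colours run together in caput, corpus and cauda, and the Connective points lie higher in the vas deferens for Hoxa10, Hoxd10, Hoxa11 and Hoxd11.

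Smooth muscle cells carried HoxA and HoxD genes of high number in both libraries with enough cells (58 in the cauda, 437 in the vas deferens). The 7 corpus muscle cells held 10 Hox UMIs and are not considered further. Hoxa10 was the highest, at 114 UPM in the cauda and 233 UPM in the vas deferens, a ratio of 2.04 (interval 1.39 to 3.10). Hoxd10 went the other way, at 106 and 49.1 UPM, 2.17-fold lower in the vas deferens (1.33 to 3.46). Hoxd13 had 1 cauda UMI and 52 vas deferens UMIs, or 3.94 and 41.2 UPM, a ratio of 10.4 with an interval of 1.79 to 421. With the cauda side raised to the floor of 3 UMIs, the Hoxd13 ratio was 3.48. Hoxa13, the last gene of HoxA and a regulator of the terminal genital tract, had 0 and 35 UMIs, so that vas deferens muscle, at 27.7 UPM, was at least 2.34-fold above the cauda floor of 11.8 UPM. Hoxa11 (27.6 and 34.1 UPM) and Hoxd11 (35.5 and 57.1 UPM) had overlapping intervals.

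Of 9 muscle genes tested, 3 were higher in vas deferens than cauda and 1 lower, against 12.4% and 1.46% of all genes. Within the muscle population named MuscleGfra4 (31 cauda and 207 vas deferens cells), 3 of 6 were higher and 0 lower (12.0% and 1.82%). Hoxd10 in that population was 1.96-fold lower in the vas deferens (interval 1.13 to 3.29), short of a call. In the vas deferens, muscle exceeded stroma for Hoxa10 (2.51-fold, interval 2.11 to 2.99), Hoxa13 (4.97-fold, 2.61 to 10.00) and Hoxd13 (2.72-fold, 1.76 to 4.25). In the cauda 0 of 12 Hox genes were higher in muscle than stroma and 6 lower (7.61% and 22.9% of all genes). Depth limits that 0, because a gene needed 20 UMIs in muscle to be called higher. Cauda muscle held 253539 UMIs against 1261473 in vas deferens muscle, and its paralogs 11 to 13 summed to 17 UMIs. None of that class could therefore be called higher in cauda muscle, and the 2 libraries cannot be compared by these counts. In the vas deferens Hoxa10, Hoxa13 and Hoxd13 were the 3 higher of 14 tested, with 2 lower (20% and 23.2% of all genes). Hoxa11 was lower in muscle by 1.88-fold, short of a call. Stromal marker genes summed to 419 UPM in vas deferens muscle and to 15008 UPM in vas deferens stroma.

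In principal cells, which absorb fluid and secrete proteins that act on sperm, Hox levels were lowest in the corpus or cauda for most genes, with a highest level 1.61-fold to 4.43-fold above the lowest over the 15 genes. Hoxb8 stood at 199.6, 102, 93.1 and 188 UPM from caput to vas deferens. Hoxb7, whose promoter is widely used to drive transgenes in the Wolffian duct, stood at 143, 74.0, 63.2 and 174 UPM, and Hoxb6 at 143, 101, 85.6 and 247 UPM. The highest library was the caput for 8 of 15 genes and the vas deferens for 6, against 22.2% and 33.0% of all genes. Smooth muscle markers within principal cells summed to 690, 78.9, 87.9 and 336 UPM from caput to vas deferens, high in the same libraries as the Hox sum, and their part in the result was not tested. Stromal markers in the same cells did not move with it (78.3, 57.1, 86.2 and 87.3 UPM). Hoxb2, a hindbrain and neural crest patterning gene, was the 1 gene past 4-fold, with 43.5, 50.7, 28.7 and 127 UPM and a vas deferens level 4.43-fold above the cauda (interval 3.32 to 6.04).

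Hoxd4 and Hoxd8 were highest in caput principal cells. Hoxd4 stood at 247 UPM there and at 70.5, 64.4 and 97.8 UPM in the other libraries, 3.84-fold above the cauda (interval 3.11 to 4.77). It was high in each of the 3 caput principal populations of the annotation (287, 235 and 231 UPM in PC05, PC10 and PC15), and lay between 17.4 and 131 UPM in the other populations. Hoxd8 stood at 139, 77.5, 53.5 and 83.3 UPM. Hoxb9 ranged over principal populations from 4.70 UPM in PC06, a corpus population with 2 Hoxb9 UMIs (interval 0.57 to 17.0), to 113 UPM in PC02 of the vas deferens (97.4 to 129.7).

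Of 12 principal Hox genes tested, 0 were higher in cauda than caput and 5 lower, against 11.9% and 19.4% of all genes. Between corpus and cauda 0 of 12 were called either way (5.36% of all genes higher, 19.5% lower), and between caput and corpus 0 were higher in the corpus and 2 lower (18.4% and 10.7%). From cauda to vas deferens 5 of 12 were higher and 0 lower (25.5% and 9.26%), and the 5 were Hoxb2, Hoxb6, Hoxb7, Hoxb8 and Hoxb9. With the epididymis pooled, 3 of 13 were higher in the vas deferens and 1 lower (14.1% and 19.1%), and the median log2 ratio was 0.49 against 0.04 over all genes. Without the cauda library 1 was higher and 0 lower, and without the caput library 0 were lower. Spearman's rho of paralog number with the log2 ratio of vas deferens to epididymis was −0.02 over 13 principal genes and 0.44 over 26 stromal genes. The median UMI count per principal cell was 844, 658, 889 and 1287 from caput to vas deferens, so shares of cells with a UMI were compared after thinning.

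Low-numbered HoxA genes were near the detection limit in principal cells, with Hoxa5 between 2.56 and 5.80 UPM and Hoxa7 between 2.11 and 6.96 UPM. HoxC genes had at most 8 UMIs in a library. Paralogs 11 to 13 summed to 0, 0, 3 and 12 UMIs in principal cells of the 4 libraries. In the vas deferens library, stroma was 75.1-fold above principal cells for Hoxa11 (interval 28.8 to 279) and 49.9-fold for Hoxd11 (23.7 to 126). In the opposite direction principal cells were 58.9-fold above stroma for Hoxb8 (29.8 to 137) and 23.0-fold for Hoxb6 (15.7 to 35.0).

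The split between epithelium and stroma recurred in each library. Stroma was higher than principal cells for 7 of 19 Hox genes and lower for 11 in the caput (26.7% and 22.6% of all genes), for 11 and 11 of 23 in the corpus (27.5% and 27.7%), for 10 and 9 of 20 in the cauda (34.0% and 21.4%), and for 7 and 11 of 19 in the vas deferens (26.9% and 27.2%). In each library 1 tested gene was left without a call. In the caput it was Hoxb4, at 41.9 UPM in stroma and 38.3 UPM in principal cells, and in the vas deferens Hoxd9, at 17.9 UPM in stroma and 27.6 UPM in principal cells.

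Basal cells, which lie at the base of the epithelium, held 12 genes at 20 or more UMIs, Hoxb2 to Hoxb9, Hoxd3, Hoxd4, Hoxd8 and Hoxd9, which principal cells also held, mostly at higher levels. None of the Hox genes was called 2-fold higher in basal than principal cells in any library (23.5%, 20.6%, 27.1% and 20.1% of all genes were). From caput to vas deferens, 6 of 12, 11 of 12, 5 of 11 and 10 of 12 were lower, against 19.8%, 29.5%, 26.2% and 29.1% of all genes. Short of a call, Hoxb9 in the corpus stood at 47.1 UPM in basal and 26.8 UPM in principal cells. In the vas deferens it was lower in basal cells, at 64.4 against 92.3 UPM. The 2 basal genes past 4-fold were Hoxb3, at 14.2 UPM in the caput and 3.25 UPM in the corpus (4.37-fold, interval 1.84 to 11.5), and Hoxd3, at 26.2 and 6.09 UPM (4.31-fold, 2.31 to 8.45). Hoxb8, with more UMIs, stood at 118, 36.1, 40.8 and 30.3 UPM, and the caput was 2.89-fold above the cauda (interval 2.03 to 4.20). Hoxb9 stayed at 78.0, 47.1, 63.8 and 64.4 UPM. Hoxd9 was highest in the cauda at 11.3, 9.33, 29.3 and 12.6 UPM, 2.58-fold above the caput (1.35 to 5.11).

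Of 11 basal Hox genes tested, 1 was higher in cauda than caput and 2 lower (8.26% and 19.8% of all genes). The corpus was the low point, with 5 of 12 genes lower there than in the caput and 0 higher (10.8% and 5.75%), and 4 of 10 higher in the cauda than in the corpus and 1 lower (2.82% and 7.87%). From cauda to vas deferens 0 of 9 were higher and 1 lower (11.2% and 3.66%). Between vas deferens and epididymis 0 of 12 were higher and 1 lower (4.90% and 8.16%, median log2 ratio 0.08 against 0.05), the latter count being 0 without the caput library and 2 without the corpus or without the cauda library. Clear cells, which acidify the lumen, held Hoxb9 at 177, 137, 105 and 140 UPM, above principal cells by 2.77-fold in the caput (1.92 to 3.93), 5.12-fold in the corpus (3.37 to 7.86) and 2.74-fold in the cauda (1.90 to 3.93). In those 3 libraries 1 of 12, 2 of 12 and 2 of 11 Hox genes were higher in clear cells, against 16.6%, 19.3% and 35.0% of all genes, and 1 was lower in each (11.5%, 16.4% and 13.3%). In the vas deferens 0 of 12 were higher and 3 lower (4.53% and 4.27%). The 38 clear cells there held 149811 UMIs, and only Hoxb9, with 21 UMIs, reached the 20 UMIs needed to be called higher. That 0 is therefore set by depth for the other genes and cannot be compared with the epididymal libraries.

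Counted per cell after thinning each cell to 1000 UMIs, 67.7% of 186 caput stromal cells held a UMI of paralogs 1 to 8 (interval 60.5 to 74.4), compared with 25.8%, 16.0% and 7.07% from corpus to vas deferens. Unthinned, the shares were 74.1%, 47.5%, 42.9% and 18.3%. Hoxc8 alone was found in 47.3% of the thinned caput stromal cells and 0.122% of the vas deferens ones. For paralogs 11 to 13 the thinned shares were 0% (which allows up to 1.96%), 0% (up to 0.802%), 5.63% and 13.9%. The unthinned ones were 0%, 0.303%, 14.9% and 28.4%. Vas deferens muscle reached 15.5% thinned and 32.5% unthinned.

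Immune cells, in which Hox genes summed to 28.3 to 131 UPM from 29 UMIs, served as background. Vas deferens immune cells had a median of 2368 UMIs per cell against 2448 in stroma. Their thinned share was 4.40% for paralogs 1 to 8 and 0% of 91 cells for paralogs 11 to 13 (which allows up to 3.97%). The immune interval for paralogs 1 to 8, from 4 of 91 cells, was 1.21% to 10.9%, and that of the 7.07% in vas deferens stroma was 5.41% to 9.05%, so the thinned shares did not differ beyond counting error. Unthinned, the share was 18.3% in stroma (16.0% to 20.8%) and 10.2% in immune cells (5.37% to 17.1%), and the summed level was 94.9 UPM for paralogs 1 to 8 in stroma and 50.6 UPM for all Hox genes in immune cells. The thinned share for paralogs 11 to 13 in principal cells was 0.388% in the vas deferens and 0% elsewhere. Thinning left out 73 of 259 caput and 195 of 1015 vas deferens stromal cells.

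Genes that act with or upon Hox genes were followed in stroma as lists. Of 9 TALE cofactors, homeodomain partners of Hox proteins, 1 was higher in vas deferens than epididymis (Meis2, 2.40-fold) and 2 lower (Meis1 by 2.64-fold). Of 18 Polycomb genes tested, whose products keep Hox genes silent, 0 were higher and 5 lower, with Phc1 lowest by 2.84-fold. Of 12 Trithorax genes, which keep Hox genes active, 0 were higher and 0 lower. Of 12 retinoic acid genes 3 were higher (Stra6, which takes up retinol, by 5.03-fold) and 1 lower (Aldh1a2, a retinoic acid synthesis enzyme, by 4.21-fold). Of 8 Wolffian duct factors 2 were higher (Gata3, 3.81-fold) and 2 lower (Bmp4, 4.12-fold). The most abundant members of 3 of these lists stood, in vas deferens and epididymis, at 80.1 and 129.9 UPM (Rybp, Polycomb), 384 and 370.2 UPM (Kdm6b, Trithorax) and 75.7 and 312 UPM (Bmp4, Wolffian duct). The backgrounds are again 8.73% and 11.1% of all genes. Median log2 ratios were −0.42 (TALE), −0.36 (Polycomb), −0.07 (Trithorax), 0.39 (retinoic acid) and 0.32 (Wolffian duct), against −0.08 over all genes.

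Between cauda and caput stroma, 1 of 5 TALE genes was higher (Meis2, 2.36-fold), 2 of 12 Polycomb genes were higher and 1 lower (Ezh2 higher by 4.45-fold), and 0 of 8 Trithorax genes passed either way. For retinoic acid, 1 of 6 was higher (Rdh10, 3.50-fold) and 1 lower (Dhrs3, 18.0-fold), both retinoid-converting enzymes. Of 6 Wolffian duct factors 3 were higher (Bmp7, a secreted growth factor, by 6.72-fold) and 1 lower (Inhba, an activin subunit, by 7.17-fold). Over all genes 10.7% were higher and 11.1% lower in this comparison. Of 7 genes beside the clusters tested between vas deferens and epididymis, 0 were higher and 2 lower, with Cbx5, next to HoxC, lower by 5.72-fold. Cbx5 stood at 642 UPM in caput and 95.4 UPM in cauda stroma. The largest ratio of vas deferens to epididymis among the 7 genes was 1.10 (Calcoco1). A link between these genes and Hox levels was not tested. In principal cells 0 of 4 TALE genes passed the fold between vas deferens and epididymis (14.1% of all genes were higher and 19.1% lower). Of 11 Wolffian duct factors there, 3 were higher, Gata3 by 3.39-fold, and 3 lower, Ret by 16.6-fold.

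Some levels rest on annotation that the counting could divide in more than one way. In GENCODE M21, 15 of the 36 genes overlap another gene on the same strand, 14 an antisense gene, and 11 overlap another Hox gene. Hoxc5 spans Hoxc6, Hoxc8, Hoxc9 and Hoxc10, Hoxa3 spans Hoxa4, Hoxa5 and Hoxa6, and Hoxd3 overlaps Hoxd4. The low levels of Hoxc5 and Hoxa3 and the division between these genes are therefore uncertain. The next same-strand gene lies within 1000 bases for 3 genes, Hoxa10 (108), Hoxa13 (234) and Hoxd10 (415). The division of UMIs between these 3 and their neighbours is also uncertain. In all, 25 of the 36 genes have an overlapping gene or such a near neighbour. Strand use in the counting is not given in the sources used here, so antisense transcripts of genes such as Hoxa11 and Hoxa7 cannot be told apart. Hoxd9, Hoxd13, Hoxb8, Hoxb9 and Hoxb7 have no overlapping gene in this annotation.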

How the data were processed

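The data were 4 single-cell libraries, 1 pool per region, of FVB/NJ mice. The deposited values were raw UMI counts per gene and cell. As the study's methods describe, the authors demultiplexed with bcl2fastq, aligned to mm10 with HISAT2 (2.0.4), counted UMIs at transcript 3′ ends with multiply mapped reads ignored, merged near-identical UMIs, removed ambient RNA with a modified SoupX and kept cells of 350 to 14999 UMIs in the files. The retained matrix held 3.54% fewer UMIs than the authors' totals before ambient removal, which can lower low levels. Cell types and populations were taken from the deposited annotation, endothelial cells being separated from immune cells by its final cell type. Its principal populations (PC01 to PC15) are numbered as deposited.

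UMIs were summed per type and library and divided by all UMIs of the group (UPM). Levels carry exact Poisson intervals, ratios carry intervals from the binomial split of their summed UMIs, and shares carry Clopper-Pearson intervals, each at 95% and for counting error only. With 1 library per region nothing was tested between samples. Calls needed 20 UMIs and a ratio of 2, with a floor of 3 UMIs, and the background is the percentage of all genes called by the same rule. For shares of cells, each cell was thinned to 1000 UMIs at random and shallower cells were left out. Doublets were not called, and 374 cells holding UMIs of 2 or more markers of another type were left out as an alternative. The steps recovered known ratios on simulated data. Members with 20 or more UMIs in a type are given by value and the rest by count or range. In each list the rule names the largest ratio each way among genes past the fold and the most abundant gene; the latter is given for stroma of vas deferens against epididymis, where 2 genes are not reported here. The 19 noncoding RNAs listed for the Hox clusters matched 0 rows. The members and lists were chosen with earlier results of these data known. All 36 symbols matched GENCODE M21 (GRCm38, the assembly of mm10). Upstream windows came from RefSeq on GRCm38.p6. Python 3.11.15, numpy 2.4.6, scipy 1.17.1, pandas 2.3.3 and matplotlib 3.10.9 were used.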

Additional observations from a re-analysis of the deposited data

How the results depend on the processing

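No paired analysis was possible because each region was 1 pooled library and nothing was tested. Of 191 alternatives to 16 counts and shares, 150 stayed within 1.5 times of the reported value and 41 did not. Of 470 alternatives to 51 single-gene ratios, 429 moved by less than the counting interval, 38 moved by more and 3 reversed. Leaving out cells of shared barcodes (an alternative added after the data were seen), or ribosomal protein and mitochondrial genes from the denominator, moved no count past 1.5 times. The cause of the changes below was not tested, except that a stricter fold or UMI minimum calls fewer genes by construction.

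In stroma, the vas deferens count against epididymis went from 5 higher to 2 with 50 UMIs and to 3 in the Connective population, and from 14 lower to 9 in that population (added after the data were seen). Higher in cauda than caput went from 7 to 4 with 50 UMIs. In principal cells, higher in vas deferens (3) became 5 at 1.5-fold, 0 at 4-fold, 1 as a mean over cells, 1 with populations matched at equal weight, and 1 to 3 leaving out a library. Lower in vas deferens (1) became 4 with 10 UMIs, 0 with 50 UMIs, at 4-fold, with cells of 1000 UMIs, with UMIs before ambient removal or with matched populations, and 0 to 1 leaving out a library. Lower in cauda than caput (5) became 9 at 1.5-fold and 0 at 4-fold.

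In basal cells, lower in vas deferens (1) became 2 at 1.5-fold, 4 with matched populations, 0 at 4-fold, with cells of 1000 UMIs or without cells holding markers of another type, and 0 to 2 leaving out a library. Higher in cauda than caput (1) became 2 at 1.5-fold and 0 at 4-fold, with 50 UMIs, as a mean over cells or with matched populations, and lower (2) became 0 at 4-fold and 1 with 50 UMIs. In muscle, higher in vas deferens than epididymis (3) became 6 at 1.5-fold and 0 at 4-fold, and lower (1) became 0 at 4-fold, with 50 UMIs or as a mean over cells. Cauda against caput could not be given for muscle, which had 0 caput cells. The share of vas deferens stromal cells with a UMI of paralogs 11 to 13 was 13.9% thinned to 1000 UMIs, 7.61% thinned to 500 and 28.4% unthinned. The log2 ratio of vas deferens to epididymis reversed for Hoxa5 in principal cells (0.97) and Hoxd4 in stroma (0.30) with matched populations, and for Hoxd3 in stroma (0.76) in Connective cells. Depth limits mainly muscle in the cauda, where 3 UMIs make 11.8 UPM, and clear, endothelial and immune cells.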

Other observations

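Endothelial cells, which line blood vessels, held HoxB genes mostly, with more HoxA and HoxC than the epithelium of the same library in caput and corpus. HoxA genes gave 27.5% (caput), 24.6% (corpus) and 13.6% (vas deferens) of their Hox UMIs, from 69, 65 and 206 Hox UMIs. HoxC genes gave 11.6% and 12.3% at those proximal sites and 0% in the vas deferens. Immune cells held 29 Hox UMIs in all among 582072 UMIs. In clear cells of the vas deferens, 38 cells gave 119 Hox UMIs, of which paralogs 11 to 13 were 0.840%.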
